A study of Homo sapiens with 12 samples.

Results

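The clustered histone genes encode the H1, H2A, H2B, H3 and H4 proteins around which DNA is wound, and 71 of the 58735 genes in the count table belong to them. They were taken as all genes whose symbol starts with HIST1H, HIST2H, HIST3H or HIST4H and whose biotype is protein_coding, and the 19 genes of the same name pattern with a pseudogene biotype were left out. The symbols are the older names of these genes. Of the 71 genes, 6 encode H1, 17 H2A, 18 H2B, 15 H3 and 15 H4. The HIST1 cluster on chromosome 6 holds 55 of them, the HIST2 cluster on chromosome 1 holds 12, the HIST3 cluster on chromosome 1 holds 3 and HIST4H4 on chromosome 12 stands alone.

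HK-2 is an immortalized line of human renal proximal tubular epithelial cells, and its RNA was sequenced in 12 samples, 3 in each of 4 groups. The control group received water (H2O), and the other groups received 75 mg I/mL iohexol, an iodinated contrast medium, 5 μM cisplatin, a platinum drug that crosslinks DNA, or 4 mM vancomycin, a glycopeptide antibiotic, each for 48 h. The labels do not say whether the samples of a group came from separate cultures, so p-values measure only the spread between these samples, which may be technical. All samples are of 1 cell line, without the other cells of a kidney.

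Most clustered histone mRNAs are unlike other mRNAs. They are made during S phase, when newly copied DNA needs histones, they have no introns, and their 3′ end is formed by a cut just after a short stem-loop that the stem-loop binding protein SLBP recognises, so that they carry no poly(A) tail. Some of these genes also make a longer, polyadenylated mRNA that runs past the stem-loop, a form known from cells that have left the cell cycle. The libraries were made from RNA bound to poly-T beads, so the counts describe the part of the histone mRNA that passed this selection and not the total histone mRNA of the cells.

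The stem-loop is shown because it marks where the usual mRNA of these genes ends. In the transcripts of GENCODE release 29 (GRCh38) the letters GGNNCTTTTNANNNCC were found in 31 of the 71 genes, in 5 forms. The examples below are given 5′ to 3′ as DNA letters of the sense strand, with the stem-loop in capitals.
HIST1H2AC: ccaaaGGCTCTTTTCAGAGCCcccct
HIST1H2BD: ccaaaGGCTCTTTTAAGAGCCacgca
HIST1H2AG: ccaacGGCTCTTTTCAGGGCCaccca
HIST4H4: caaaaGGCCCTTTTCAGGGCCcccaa
HIST1H4I: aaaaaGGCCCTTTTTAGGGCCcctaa
The form of HIST1H2AC was present in 17 genes, that of HIST1H2BD in 5, that of HIST4H4 in 5, that of HIST1H4I in 3 and that of HIST1H2AG in 1. Only annotated transcripts that hold the stem-loop were measured from it. In 22 of the 31 genes such a transcript runs more than 100 bases past the stem-loop, 1128 bases in HIST1H2AC and 1761 bases in HIST1H2AG. In the other 9 it ends close to the stem-loop. HIST1H2BD is one of these 9, but its model of 871 bases spans chr6:26158146-26171349, so it has exons farther downstream. No match was found in the models of the other 40 genes, among them HIST1H2BK with 381 bases, HIST1H1C with 642 bases and HIST1H4C with 435 bases, so reads beyond these models were not counted for these genes.

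Many clustered histone genes stand head to head, and 12 such pairs started within 500 bases of each other. The promoters of 3 of the genes described most below are shown, from 250 bases before to 50 bases after the start, as given by RefSeq for GRCh38.p14. RefSeq held such a window for 65 of the 71 genes. The capitals mark the CCAAT box, a TATA box spelled TATAAA and an octamer spelled ATTTGCAT, each on either strand, and overlapping matches run together.
HIST1H2AC, chr6:26123922-26124221, plus strand: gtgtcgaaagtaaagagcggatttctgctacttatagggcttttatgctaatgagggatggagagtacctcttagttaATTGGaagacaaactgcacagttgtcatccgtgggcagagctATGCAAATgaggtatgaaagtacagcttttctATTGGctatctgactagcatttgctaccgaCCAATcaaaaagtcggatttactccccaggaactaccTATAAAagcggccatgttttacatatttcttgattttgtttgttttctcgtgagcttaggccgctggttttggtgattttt
HIST1H2BD, chr6:26157872-26158171, plus strand: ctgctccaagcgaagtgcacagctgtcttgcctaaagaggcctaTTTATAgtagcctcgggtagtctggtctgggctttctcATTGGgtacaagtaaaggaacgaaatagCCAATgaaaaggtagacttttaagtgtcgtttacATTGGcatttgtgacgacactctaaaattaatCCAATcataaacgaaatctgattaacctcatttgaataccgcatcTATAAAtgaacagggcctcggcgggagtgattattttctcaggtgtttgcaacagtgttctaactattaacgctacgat
HIST1H2BK, chr6:27146806-27147105, minus strand: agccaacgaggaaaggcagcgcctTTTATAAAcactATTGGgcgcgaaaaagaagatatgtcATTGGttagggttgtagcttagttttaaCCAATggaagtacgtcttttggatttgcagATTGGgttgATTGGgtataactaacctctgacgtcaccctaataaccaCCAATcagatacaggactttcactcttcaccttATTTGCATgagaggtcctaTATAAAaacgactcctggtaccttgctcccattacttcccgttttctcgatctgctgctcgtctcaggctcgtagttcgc
The HIST1H2AC window shares 255 bases with that of HIST1H2BC, chr6:26123877-26124176 on the minus strand, because these genes start 218 bases apart. CCAAT stood in 84.6% of the clustered histone promoters and in 34.6% of the 35116 promoters of all genes, TATAAA in 67.7% and 11.5%, and the octamer in 36.9% and 1.77%. The octamer was found in 68.8% of the H2A and 76.5% of the H2B promoters and in 0 of the H1, H3 and H4 promoters. Windows of head-to-head H2A and H2B genes share 253 to 286 bases, so the same octamer can count for both types. The letters AAACACA, known as the H1 box, were found in 6 of 6 H1 promoters and in 5.64% of all promoters. These are matches of letters and not measured binding.

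The clustered histone genes held few reads. They received 533 to 731 counts in a control sample, 1584 to 1797 under iohexol, 1173 to 1286 under cisplatin and 2651 to 2987 under vancomycin, out of total counts between 14057282 and 18177109. At these depths 3 counts, taken as the floor, correspond to 0.177 to 0.218 CPM (counts per 1000000 counts of the sample, scaled by TMM factors), counting error only. At least 1 count was found for 62 genes, and 9 had 0 counts in all 12 samples, namely HIST1H1A, HIST1H2AA, HIST1H2AD, HIST1H2AK, HIST1H2AM, HIST1H2BA, HIST1H3D, HIST1H4G and HIST2H3PS2. In the comparisons of a drug with the control group, 24 genes passed the filter on low counts at least once, 14 passed it in all 3, and 47 never did, the highest of which had 81 counts over the 12 samples. Fewer expressing cells and less RNA per cell cannot be told apart in these bulk samples.

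The summed CPM of the 71 genes was 38.7, 45.9 and 46.1 in the control samples. It was 113, 115 and 106 with iohexol, 74.2, 72.2 and 76.0 with cisplatin and 166, 197 and 184 with vancomycin. No sample of a group overlapped another group, and the mean was 2.55 times the control mean with iohexol, 1.70 times with cisplatin and 4.18 times with vancomycin. The sum was not tested. The types of histone differed in these ratios. For H1, the linker histone that binds between nucleosomes, the ratio of means was 2.62 with iohexol, 3.32 with cisplatin and 5.90 with vancomycin. For H2A it was 3.40, 1.2 and 3.28, for H2B 2.30, 1.66 and 4.23, for H3 3.06, 2.52 and 3.52, and for H4 1.94, 1.46 and 4.78, in the same order of drugs. H2A was therefore high with iohexol and vancomycin and close to the control level with cisplatin, where its sum was 10.1 to 11.8 CPM beside 8.71 to 9.73 CPM in the control samples.

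**Figure D1:**
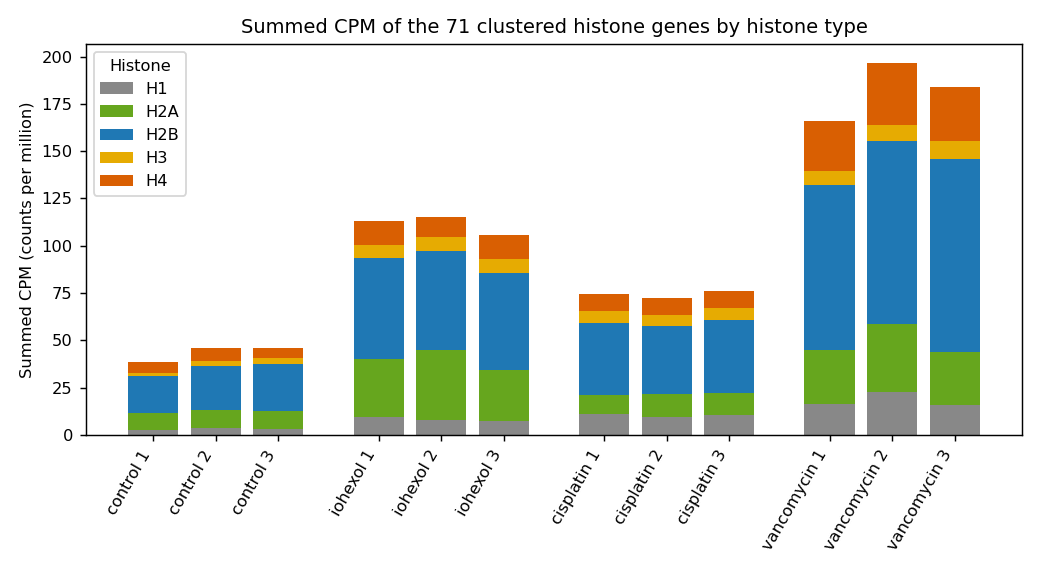
Stacked bars give the summed CPM of the 71 clustered histone genes in each of the 12 samples, with 1 color per histone type. The control samples reach 38.7 to 46.1 CPM, the cisplatin samples 72.2 to 76.0, the iohexol samples 106 to 115 and the vancomycin samples 166 to 197, and H2B genes form the largest block in every sample.

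A single gene, HIST1H2BK, gave 27.6% of this sum in the control group, 20.1% with iohexol, 27.3% with cisplatin and 35.9% with vancomycin. Without it, the mean sum was 31.5 CPM in the control group, 88.8 with iohexol, 53.9 with cisplatin and 117 with vancomycin. On the scale of CPM per kilobase of gene model, HIST1H2BK was also first in each group, with 31.6 in the control group. In the control group it was followed by HIST1H1C with 4.75, HIST1H4I with 3.54, HIST1H2BD with 2.86, HIST3H2A with 2.83 and HIST1H2AC with 2.73 CPM per kilobase. With iohexol HIST1H2BD (15 CPM per kilobase) and HIST1H2AC (14.3) came next, with cisplatin HIST1H1C was second (15.5), and with vancomycin HIST1H2BK reached 172 CPM per kilobase. The model of HIST1H2BK holds no stem-loop, so its level per kilobase counts no reads of a longer 3′ end. The models differ in length, with 381 bases for HIST1H2BK and 1668 for HIST1H2AC, and in how much 3′ end they hold. This order of genes is therefore approximate.

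Iohexol left no clustered histone gene lower than in the control group by the test, and raised members of every histone type. In this comparison 12 clustered histone genes were up-regulated and 0 were down-regulated among 19 tested (edgeR quasi-likelihood test, Benjamini-Hochberg adjusted p under 0.05 over all genes tested). Over all genes tested, 11.2% were up-regulated and 9.77% down-regulated. More than 2-fold, 10 histone genes were up-regulated, beside 4.02% of all genes. The count of 0 down-regulated genes was also 0 at an unadjusted p under 0.05 and with DESeq2 and limma-voom. A fit of all 12 samples called 1 gene down, HIST2H2AC, named here after its values were seen. Genes with few counts in the control samples could pass the filter only through the drug samples, so the 10 genes over the filter in each control sample were counted separately. Of these, 6 were up-regulated and 4 were not called, with a median log2 fold change of 0.99, beside 10.6% up-regulated and a median of -0.01 for the 14337 genes that met the same condition. The 6 were HIST1H2BK, HIST1H2AC, HIST1H4I, HIST1H1C, HIST1H2BD and HIST1H2BC.

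HIST1H2AC, an H2A gene at chr6:26124145-26139116 (GRCh38, plus strand) and HIST1H2BD rose most among these 6. The CPM of HIST1H2AC was 4.86, 4.08 and 4.74 in the control samples and 23.7, 27.9 and 20.1 with iohexol. The groups did not overlap, and the log2 fold change was 2.41 ± 0.17 (SE, edgeR adjusted p = 1.73e-06). HIST1H2BD, an H2B gene at chr6:26158146-26171349, behaved much the same, with 1.89, 2.95 and 2.63 CPM in the control samples and 12.3, 14.5 and 12.5 with iohexol (log2 fold change 2.40 ± 0.19). HIST1H2BC, the H2B gene that starts head to head with HIST1H2AC, had 1.23, 1.38 and 2.17 CPM in the control samples and 6.36, 5.12 and 6.35 with iohexol (log2 fold change 1.90 ± 0.25). All 3 have gene models over 800 bases, and those of HIST1H2AC and HIST1H2BC continue more than 100 bases past the stem-loop. Exons of HIST1H2BD overlap LARP1P1 on the same strand and AL353759.1 on the other, and the kit named in the labels does not mark strand, so reads of these genes cannot be told apart.

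Other genes rose less with iohexol. HIST1H2BK had 10.5, 12.8 and 12.8 CPM in the control samples and 25.1, 21.5 and 20.5 with iohexol (log2 fold change 0.91 ± 0.14, edgeR adjusted p = 0.000675). HIST1H1C, which encodes the linker histone H1.2, had 2.61, 3.51 and 3.03 CPM and then 7.53, 6.84 and 5.95 (log2 fold change 1.16 ± 0.20). HIST1H4I had 4.64, 5.27 and 3.82 CPM and then 8.01, 7.42 and 8.28 (log2 fold change 0.80 ± 0.18). In each of these the lowest iohexol sample lay above the highest control sample. HIST1H3E, an H3 gene, rose by a log2 fold change of 2.28 ± 0.33, with 0.363 to 1.18 CPM in the control samples and 3.66 to 4.22 after iohexol. HIST1H1E, a linker histone gene, had 0, 0 and 2 counts in the control samples and 55 counts in the 3 iohexol samples together, a ratio of 27.4 (exact 95% counting interval 7.23 to 232). HIST1H2BN was called at an adjusted p of 0.0474 (log2 fold change 1.10 ± 0.36), and this call was lost when any 1 of the 6 samples was left out, at adjusted p between 0.0525 and 0.143. With all samples it was lost with DESeq2 (adjusted p = 0.0675), limma-voom (0.0501) and a replicate block (0.0685), at about the same log2 fold change. HIST1H2BE, also up-regulated, overlaps AL353759.1 as HIST1H2BD does, and its call (log2 fold change 1.70 ± 0.40, adjusted p = 0.0109) was lost without control sample 2 (adjusted p = 0.0575) or iohexol sample 2 (adjusted p = 0.0637). The H4 genes HIST4H4 and HIST1H4H were also up-regulated. HIST1H2AG and HIST1H2BJ, an H2A and H2B pair with starts 291 bases apart, were not called at log2 fold changes of 1.06 ± 0.38 and 0.74 ± 0.31. HIST1H2AG had 1.38, 3.58 and 3.41 CPM with iohexol and was called without iohexol sample 1 (1.38, adjusted p = 0.0144), in a fit of all 12 samples (1.05, adjusted p = 0.0278) and without a filter (1.03, adjusted p = 0.0138). HIST3H2A was not called either (log2 fold change 0.69 ± 0.29, adjusted p = 0.11) except without iohexol sample 3 (0.92, adjusted p = 0.0122).

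**Figure D2:**
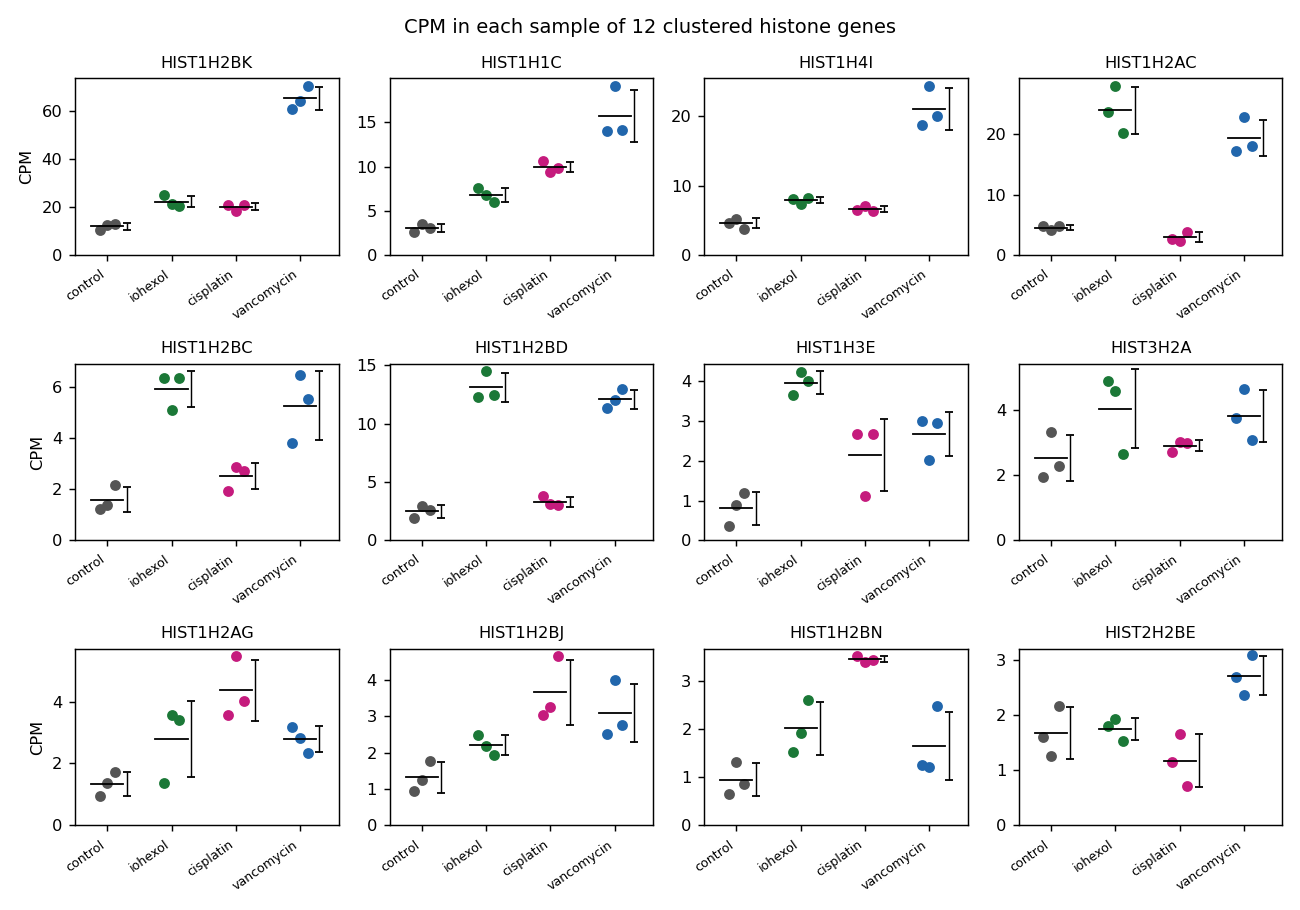
Each panel gives the CPM of 1 clustered histone gene in the 3 samples of each group (points), with the group mean (line) and SD (bar beside it). HIST1H2AC, HIST1H2BD and HIST1H2BC are higher with iohexol and vancomycin than with cisplatin, and of them only HIST1H2AC lies below its control samples with cisplatin. HIST1H2BK and HIST1H4I are highest with vancomycin, and HIST1H2AG, HIST1H2BJ and HIST1H2BN have their highest mean with cisplatin.

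Cisplatin raised genes of every histone type, among the H2A genes HIST1H2AG, while HIST1H2AC fell. Against the control group, 9 clustered histone genes were up-regulated and 1, HIST1H2AC, was down-regulated among 16 tested, while 29.2% of all genes tested were up-regulated and 30.6% down-regulated. More than 2-fold, 7 were up- and 0 down-regulated, beside 7.62% and 8.72% of all genes. Among the 10 genes over the filter in each control sample, 5 were up-regulated, 1 was down-regulated and 4 were not called, with a median log2 fold change of 0.59 beside -0.04 for the 14337 genes of the same condition. Of those genes 27.8% were up-regulated and 33.8% down-regulated. Scaling by library size alone moved the median of all genes tested from 0.01 to 0.23, and 11 histone genes were then up-regulated and 0 down-regulated.

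HIST1H1C had the smallest p with cisplatin. It had 10.6, 9.42 and 9.80 CPM with cisplatin, all above the control values of 2.61 to 3.51 (log2 fold change 1.69 ± 0.17, edgeR adjusted p = 1.16e-07). HIST1H2BN had 3.51, 3.39 and 3.43 CPM with cisplatin and 0.653 to 1.32 in the control samples (log2 fold change 1.84 ± 0.29, adjusted p = 3.05e-05). Its model is the longest of all 71, with 5477 bases, and overlaps HIST1H2AL on the same strand and HIST1H2AK and HIST1H2BPS2 on the other. The pair HIST1H2AG and HIST1H2BJ was up-regulated here. HIST1H2AG had 3.57, 5.48 and 4.02 CPM beside 0.943, 1.38 and 1.71 in the control samples (log2 fold change 1.68 ± 0.27), and HIST1H2BJ had 3.03, 3.26 and 4.67 CPM beside 0.943, 1.25 and 1.78 (1.45 ± 0.29). HIST1H2BK rose less, to 21.1, 18.7 and 21.0 CPM (log2 fold change 0.75 ± 0.12). Of H3 genes, HIST1H3E, HIST1H3G and HIST1H3H were called, at log2 fold changes of 1.38 ± 0.42, 1.33 ± 0.38 and 1.88 ± 0.55. HIST1H3G and HIST1H3H were named after their values were seen, and HIST1H3H had 0.526 CPM or less in each control sample. HIST1H3H therefore passed the filter only through the cisplatin samples, so its fold change is descriptive and its p-value is not given.

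HIST1H2AC had 2.67, 2.34 and 3.90 CPM with cisplatin, each below the lowest control value of 4.08, and fell by 0.61 on the log2 scale (SE 0.22, edgeR adjusted p = 0.0249). The call was lost without cisplatin sample 1 (-0.54, adjusted p = 0.0829), without cisplatin sample 2 (-0.47, adjusted p = 0.109) and with library size alone (-0.40, adjusted p = 0.132), all in the same direction. Its head-to-head neighbour HIST1H2BC had 1.94, 2.89 and 2.72 CPM with cisplatin and was not called (log2 fold change 0.65 ± 0.29, adjusted p = 0.0663). It was called without control sample 3 (0.92, adjusted p = 0.0218), without cisplatin sample 1 (0.81, adjusted p = 0.0424) and with library size alone (0.87). The difference between these neighbours was not tested. HIST1H2BD was not called (0.40 ± 0.24, adjusted p = 0.161), with 3.82, 3.08 and 3.01 CPM, but was with library size alone (0.62, adjusted p = 0.0327). HIST1H4I was called at a log2 fold change of 0.53 ± 0.17 (adjusted p = 0.0121), but not without control sample 3 (adjusted p = 0.0603) or cisplatin sample 2 (adjusted p = 0.0511).

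Vancomycin raised the most clustered histone genes, among them HIST1H4C, which had at most 2 counts in any sample of the other groups. Against the control group, 18 clustered histone genes were up-regulated and 0 were down-regulated among 22 tested, 17 of them more than 2-fold. Over all genes tested, 29.0% were up-regulated, 28.8% were down-regulated and 10.8% were up-regulated more than 2-fold. The count of 0 down-regulated genes was 0 at an unadjusted p under 0.05 too, and with DESeq2 and limma-voom. Among the 13 genes over the filter in each control sample, 10 were up-regulated and 3 were not called, with a median log2 fold change of 1.16 beside -0.05 for the 14575 genes of the same condition, of which 27.8% were up-regulated.

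HIST1H2BK had 61, 64.6 and 70.8 CPM with vancomycin, against 10.5 to 12.8 in the control samples (log2 fold change 2.40 ± 0.12, edgeR adjusted p = 3.9e-14). Of the 31-base words of its model, 87.3% also occur in other genes, most often in H2BFS. H2BFS itself had at most 0.376 CPM in any sample. The division of reads between HIST1H2BK and the genes that share its words is therefore uncertain. HIST1H1C had 14, 19.1 and 14.1 CPM (log2 fold change 2.31 ± 0.18) and HIST1H4I 18.6, 24.4 and 20.0 CPM (2.15 ± 0.16). HIST1H2AC had 17.3, 22.8 and 18 CPM (2.04 ± 0.16), HIST1H2BD 11.3, 12.0 and 12.9 CPM (2.23 ± 0.19) and HIST1H2BC 3.82, 6.48 and 5.54 CPM (1.67 ± 0.28). For each of these genes the vancomycin samples lay above all control samples. HIST1H2AG and HIST1H2BJ rose by log2 fold changes of 1.00 ± 0.32 and 1.16 ± 0.32, and HIST1H3E by 1.66 ± 0.38. HIST1H2BN (0.75 ± 0.40), HIST2H2BE (0.66 ± 0.30, named after its values were seen) and HIST3H2A (0.54 ± 0.27) were not called, with HIST3H2A called without control sample 2 (0.79, adjusted p = 0.0339).

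**Figure D3:**
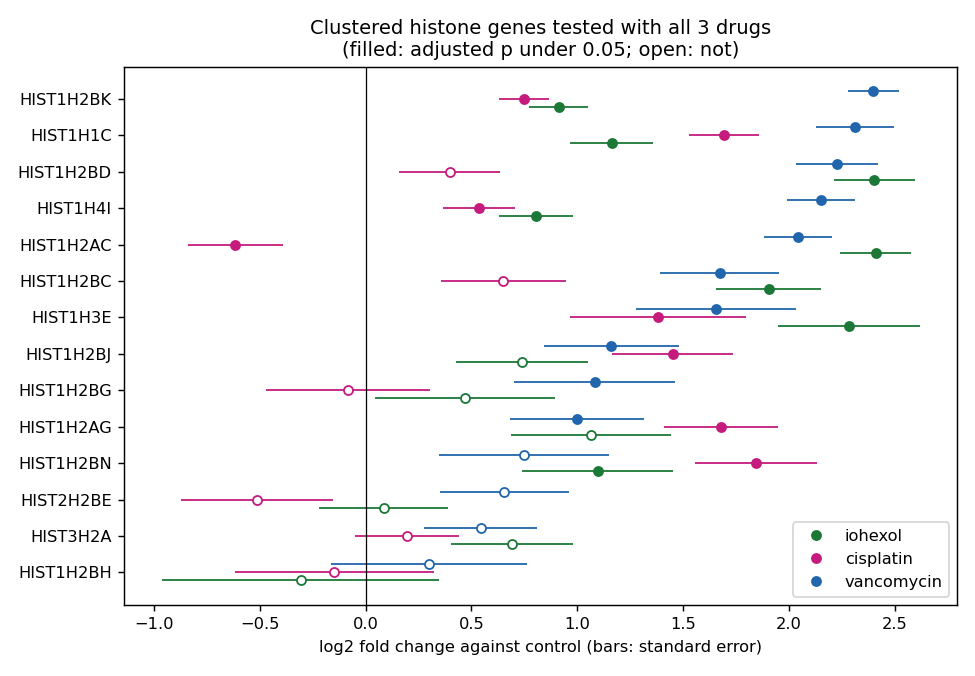
Points give the log2 fold change against control of the 14 clustered histone genes tested with all 3 drugs, with the standard error as a bar, filled where the adjusted p was under 0.05 and open where it was not. HIST1H2AC stands at 2.41 with iohexol, 2.04 with vancomycin and -0.61 with cisplatin, and HIST1H2BK at 0.91, 2.40 and 0.75.

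Vancomycin also raised genes with few or no counts in the control samples. HIST1H4C, an H4 gene, had 53, 52 and 63 counts with vancomycin, 0 in each control sample and at most 2 in any iohexol or cisplatin sample. Its mean of 3.57 CPM with vancomycin was at least 17.8-fold higher than the floor of 3 counts per control sample. With 0 counts in each control sample, HIST1H4C passed the filter only through the vancomycin samples, so its p-value is not given. HIST1H1E had 88 counts over the 3 vancomycin samples against 2 in the control samples, a ratio of 42.0 (exact 95% counting interval 11.3 to 352), beside 55 counts with iohexol and 2 with cisplatin. The following genes were named after their values were seen. HIST1H3C had 17, 22 and 16 counts with vancomycin and 0 in each control sample, at least 5.86-fold higher than the floor. HIST1H2AE had 15, 31 and 14 counts against 5, 5 and 0 in the control samples (log2 fold change 2.44 ± 0.62), and HIST2H2AC 19, 20 and 18 against 4, 8 and 8 (1.39 ± 0.45). Neither gene reached the filter in any control sample. Both passed it only through the vancomycin samples, so these fold changes are descriptive and no p-value is given. HIST1H2AL had 5, 11 and 5 counts with vancomycin and 0 in the other 9 samples. HIST1H2AL lies within the overlap with HIST1H2BN, and 51.4% of the 31-base words of HIST2H2AC also occur in HIST2H2AA4 or other genes. HIST1H2BG, HIST4H4, HIST1H4H and HIST1H3H were also up-regulated with vancomycin. HIST1H3H passed the filter only through the vancomycin samples. HIST4H4 and HIST1H4H had similar counts with iohexol, at 28, 21 and 20 beside 20, 28 and 21 with vancomycin for HIST4H4, and 21, 21 and 24 beside 20, 14 and 21 for HIST1H4H.

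The genes that were highest with vancomycin were mainly those with short models. The 71 genes were divided after their values were seen into 25 with a model over 800 bases, most of which run past the stem-loop, and 46 with a shorter model, most of which hold no stem-loop. In all 3 vancomycin samples the CPM lay above that of the other 9 samples for 12 of the 37 short-model genes with counts and for 2 of the 25 long-model genes, beside 9.59% of all genes with counts. The same condition was met with iohexol by 0 short-model and 3 long-model genes (3.42% of all genes) and with cisplatin by 0 and 1 (7.44%). Some of the 12 short-model genes lay near the floor of 3 counts. With vancomycin, HIST1H2AH had 4, 3 and 4 counts and HIST1H4B had 9, 6 and 3. Without HIST1H2BK and HIST1H1C, the 44 short-model genes summed to 2.13 to 2.37 CPM in the control samples, 2.94 to 5.32 under iohexol, 3.26 to 4.18 under cisplatin and 14.8 to 19.6 under vancomycin, a ratio of means of 1.90, 1.69 and 7.42. For all 46 short-model genes, these ratios were 1.93, 1.96 and 5.65. The long-model genes summed to 23.3 to 27.9, 74.7 to 83.6, 38.3 to 41.1 and 76.1 to 93.5 CPM, a ratio of 2.97, 1.53 and 3.21. The long-model sums of the iohexol and vancomycin samples overlapped, while the short-model sums did not. The 19 pseudogenes of the same name pattern summed to 9.07 to 10.0 CPM in the control samples, 8.42 to 10.4 under iohexol, 15.9 to 19.6 under cisplatin and 8.81 to 9.32 under vancomycin.

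Other RNAs known to lack a poly(A) tail were also high with vancomycin. A list of 36 such RNAs summed to 6.75 to 7.70 CPM in the control samples, 6.08 to 7.35 under iohexol, 10.2 to 13.5 under cisplatin and 168 to 178 under vancomycin. Most of this was RN7SL2, an RNA of the signal recognition particle, with 150 to 162 CPM under vancomycin and 0.534 to 5.82 in the other 9 samples. SNORD3A, the U3 small nucleolar RNA, had 8.50 to 11.0 CPM under vancomycin and at most 0.118 elsewhere, and the vault RNA VTRNA1-2 had 1.42 to 2.00 CPM and 0 elsewhere. The list did not move as a whole: only 5 of its RNAs were tested with vancomycin, of which 3 were up-regulated and SNORA73B was down-regulated (log2 fold change -1.38 ± 0.40), and SNORD17 was not called (-0.27 ± 0.31). These RNAs moved with the treatment, and their part in the rise of the histone genes was not tested. The summed values of the list overlapped those of the control samples with iohexol and lay above them with cisplatin. Only 3 of the listed RNAs were tested with iohexol and 4 with cisplatin.

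**Figure D4:**
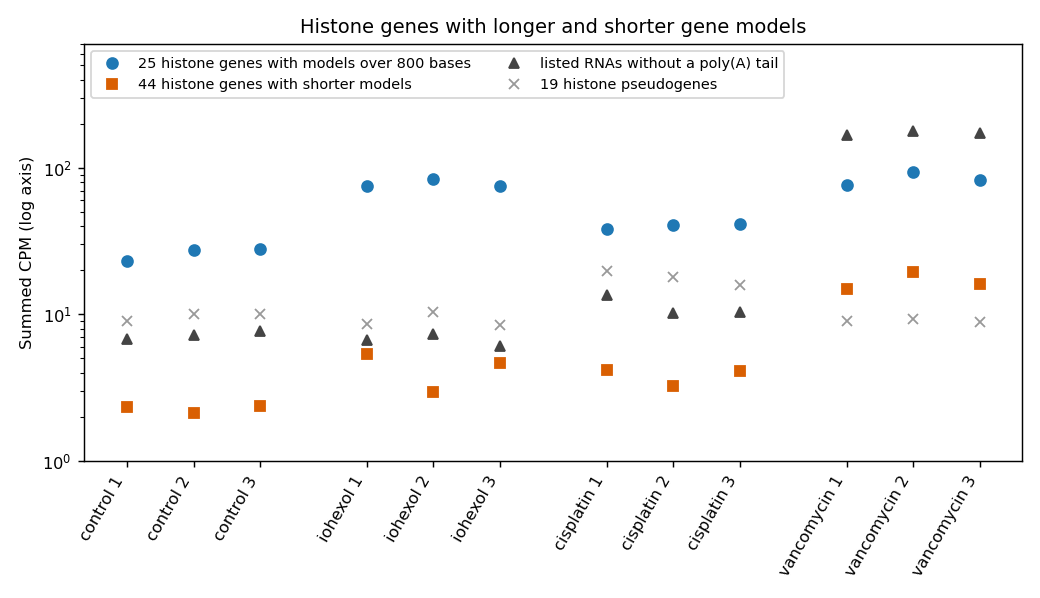
Points give summed CPM on a log axis in each of the 12 samples for the 25 long-model histone genes, the 44 short-model histone genes without HIST1H2BK and HIST1H1C, the listed RNAs without a poly(A) tail and the 19 histone pseudogenes. The long-model genes reach 74.7 to 83.6 CPM under iohexol and 76.1 to 93.5 under vancomycin, while the short-model genes and the RNAs without a tail reach their highest values with vancomycin, 14.8 to 19.6 and 168 to 178 CPM.

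The drugs were compared with each other in contrasts of a fit of all 12 samples, in which 24 clustered histone genes were tested. Between iohexol and cisplatin, 8 were higher with iohexol and 3 higher with cisplatin, beside 27.9% and 26.0% of all genes tested. The share of histone genes that was higher with iohexol was thus near that of all genes. HIST1H2AC had the smallest p, with a log2 difference of 3.00 ± 0.18 (edgeR adjusted p = 4.32e-11), and HIST1H2BD (1.99 ± 0.17) and HIST1H2BC (1.24 ± 0.24) were also higher with iohexol. HIST1H1E was higher with iohexol as well, with 55 counts against 2. The 3 genes that were higher with cisplatin were HIST1H1C (log2 difference -0.55 ± 0.16), HIST1H2BJ (-0.73 ± 0.27) and HIST1H2BN (-0.77 ± 0.30), and without cisplatin sample 3 only 1 gene was called lower with iohexol. More than 2-fold, 6 were higher with iohexol and 0 lower, beside 11.4% and 6.11% of all genes. Without iohexol sample 2 the count higher with iohexol was 5. HIST1H2BK did not differ beyond the spread between samples (0.14 ± 0.11, adjusted p = 0.307).

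Between iohexol and vancomycin, 7 of the 24 genes were lower with iohexol and 1 was higher, beside 29.0% and 27.6% of all genes tested. The share of histone genes that was lower was thus close to that of all genes. Of the 7, HIST1H2BK (log2 difference -1.55 ± 0.11), HIST1H1C (-1.21 ± 0.16) and HIST1H4C (3 counts against 168) have short models, and HIST1H4I (-1.41 ± 0.14) is the only one with a long model. The others were HIST2H2AC, HIST1H2AE and HIST1H3C. Among the 10 genes over the filter in each control sample in the iohexol comparison, 3 were lower with iohexol than vancomycin and 0 were higher. HIST1H2AC (0.31 ± 0.15, adjusted p = 0.0939), HIST1H2BD (0.12 ± 0.15) and HIST1H2BC (0.17 ± 0.23) were not called, and their samples overlapped. The gene higher with iohexol was HIST1H2BE (1.15 ± 0.47, adjusted p = 0.0435), with 0.203 to 0.876 CPM under vancomycin. With DESeq2 or without iohexol sample 2 the count of higher genes was 0, and without iohexol sample 3 it was 2. With library size alone 3 genes were higher and 7 lower, as the median of all genes tested moved from 0.02 to 0.22.

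Between cisplatin and vancomycin, 14 of the 24 genes were lower with cisplatin and 1, HIST1H2BN (log2 difference 1.06 ± 0.31), was higher, beside 34.7% and 30.0% of all genes tested. HIST1H2AC differed by -2.70 ± 0.19, HIST1H2BD by -1.87 ± 0.17, HIST1H2BK by -1.69 ± 0.11 and HIST1H4I by -1.66 ± 0.14. HIST1H1C differed less (-0.66 ± 0.15, edgeR adjusted p = 0.000707). HIST1H2AG (0.64 ± 0.29) and HIST1H2BJ (0.25 ± 0.26) were not called. Without cisplatin sample 1 or without vancomycin sample 3 the count of higher genes was 2. With library size alone 3 genes were higher and 12 lower, as the median of all genes tested moved from -0.03 to 0.30.

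Genes that accompany histone synthesis were counted by list. For this list and those that follow, the shares of all genes tested were 11.2% up- and 9.77% down-regulated with iohexol. They were 29.2% and 30.6% with cisplatin, and 29.0% and 28.8% with vancomycin. A list of 30 genes of DNA replication and S phase had 0 up- and 4 down-regulated genes with iohexol, 10 and 9 with cisplatin, and 1 and 24 with vancomycin. Its counts with cisplatin were close to the shares of all genes. With cisplatin, scaling by library size alone gave 17 up- and 7 down-regulated genes. The count of 0 with iohexol was also 0 at an unadjusted p under 0.05, with DESeq2 and with limma-voom. RRM2, a subunit of ribonucleotide reductase, had 137 to 158 CPM in the control samples and 73.2 to 74.3 under vancomycin (log2 fold change -1.04 ± 0.09). With cisplatin RRM2 rose to 235 to 251 CPM (0.73 ± 0.07), while MCM6, part of the replicative helicase, fell from 155 to 173 to 76.0 to 77.7 CPM (-1.09 ± 0.07). GINS1, another part of that helicase, fell with each drug. Its CPM was 87.9 to 102 in the control samples, and the iohexol samples had 62.6 to 68.8, the cisplatin samples 58.3 to 60.6 and the vancomycin samples 38.7 to 44. MKI67, a marker of cycling cells, had 605 to 664 CPM in the control samples and 228 to 338 under vancomycin (-1.19 ± 0.11). The cell cycle inhibitor CDKN1A rose with each drug. Its CPM was 38.2 to 50.5 in the control samples, 57.8 to 80.5 under iohexol, 122 to 139 under cisplatin and 276 to 296 under vancomycin. Whether these changes have a part in the levels of the histone genes was not tested.

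A list of 24 genes of histone gene transcription, 3′ end formation and histone mRNA decay had 0 up- and 2 down-regulated genes with iohexol (0 and 0 with library size alone, 0 and 1 with limma-voom), 13 and 4 with cisplatin (16 and 2 with library size alone) and 2 and 12 with vancomycin. With iohexol, 0 genes of the list were up-regulated at an unadjusted p under 0.05, with DESeq2 or with limma-voom. SLBP had 236 to 268 CPM in the control samples and 150 to 173 under vancomycin (log2 fold change -0.72 ± 0.09), and did not pass the test with iohexol (-0.07 ± 0.09) or cisplatin (-0.10 ± 0.06). NPAT, the coactivator of histone gene transcription, had 28.5 to 34.6 CPM in the control samples and 16.4 to 19.7 under vancomycin (-0.88 ± 0.12), and did not pass with iohexol (0.09 ± 0.15) or cisplatin (0.06 ± 0.10). SLBP and NPAT were named for their roles and lie outside the rule for named genes. CCNE2, a cyclin E that acts upstream of NPAT, rose with cisplatin from 19.2 to 21.8 to 37.6 to 38.2 CPM and fell with vancomycin to 9.70 to 10.5 CPM. DIS3L2, an exonuclease, fell with cisplatin from 19.7 to 23.7 to 5.03 to 5.61 CPM (-2.04 ± 0.13), and CTIF, a translation factor for mRNAs bound by the cap-binding complex, fell from 19.8 to 24.5 to 9.45 to 10.7 CPM (-1.13 ± 0.12).

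The replication-independent histones are encoded outside the clusters by polyadenylated mRNAs, and 11 of the 12 listed were tested. They had 0 up- and 2 down-regulated genes with iohexol, 2 and 2 with cisplatin and 5 and 4 with vancomycin, and with library size alone 7 and 1 with cisplatin. The count of 0 with iohexol was 0 at an unadjusted p under 0.05, with DESeq2 and with limma-voom. H2AFJ, an H2A variant, had 14.4, 24.8 and 21.7 CPM in the control samples and 44.2, 51.7 and 45.8 with vancomycin (log2 fold change 1.17 ± 0.14). H2AFY2, a macroH2A, fell with cisplatin from 29.9 to 33.0 to 11.0 to 13.5 CPM (-1.33 ± 0.11). Of 22 histone chaperones and their partners, 0 were up- and 4 down-regulated with iohexol, 6 and 8 with cisplatin and 1 and 12 with vancomycin. The chaperone counts with cisplatin were near the shares of all genes. With iohexol, 2 chaperones were up-regulated at an unadjusted p under 0.05 (DESeq2 and limma-voom called 0 after adjustment), and with library size alone 2 were up- and 2 down-regulated. With library size alone 8 were up- and 3 down-regulated with cisplatin. ATRX, a remodeller that deposits H3.3, had 167 to 189 CPM in the control samples and 71.1 to 80.0 under cisplatin (-1.23 ± 0.07). IPO4, an importin that carries histones, fell with vancomycin from 0.943 to 1.25 CPM to 0.0616 to 0.338 CPM (-2.52 ± 0.56).

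**Figure D5:**
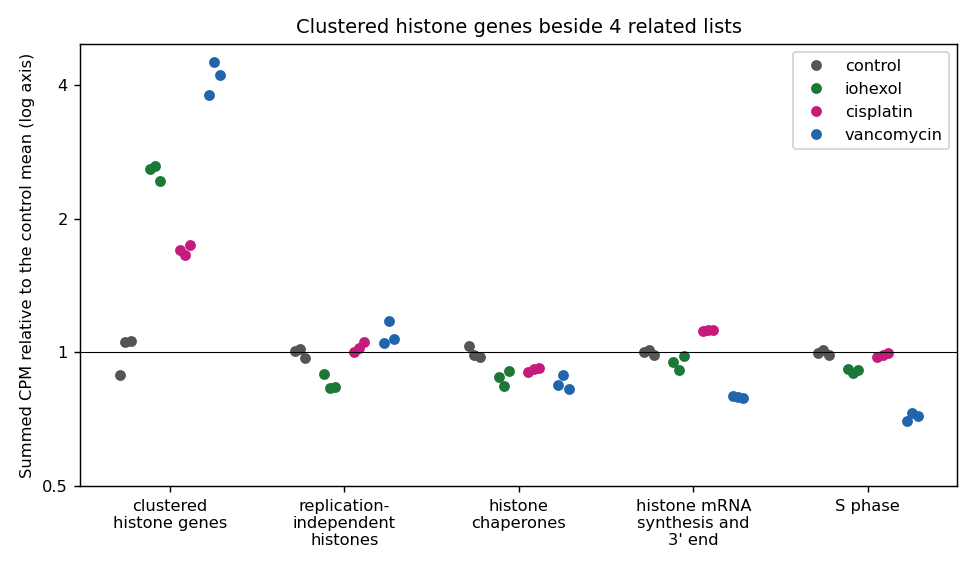
Points give the summed CPM of a gene list in each sample divided by its mean in the 3 control samples, on a log axis, for the clustered histone genes and 4 related lists. The clustered histone genes have mean ratios of 2.55 with iohexol, 1.70 with cisplatin and 4.18 with vancomycin, while those of the S phase list are 0.91, 0.99 and 0.72 and those of the replication-independent histones 0.85, 1.03 and 1.10.

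The label of the cells was checked against marker genes. PAX8 (329 to 413 CPM in the control samples) and the epithelial marker EPCAM (94.1 to 105 CPM) were present, and both were lower with cisplatin, at 130 to 133 and 33.6 to 36.7 CPM. The 12 proximal tubule markers summed to 687 to 824 CPM in the control samples, 804 to 1015 under iohexol, 370 to 393 under cisplatin and 785 to 882 under vancomycin, and with cisplatin 3 of the 5 tested were down-regulated, each more than 2-fold. ANPEP had 1.25 to 1.63 CPM in the control samples, 4.34 to 5.05 under iohexol and 0.182 to 0.768 under cisplatin, and CUBN rose with iohexol (log2 fold change 1.48 ± 0.34). The 6 epithelial markers summed to 872 to 978 CPM in the control samples, 707 to 863 under iohexol, 1370 to 1425 under cisplatin and 1290 to 1417 under vancomycin. With cisplatin 4 of the 5 epithelial markers tested were up-regulated and only EPCAM was down-regulated. Of the proximal tubule markers, SLC22A6 was at 0 in all samples and LRP2 and HNF4A had group means of at most 0.109 CPM. The epithelial cadherin CDH1 had group means of at most 0.401 CPM. Markers of blood cells summed to at most 0.338 CPM in any sample, with at most 5 counts of PTPRC and 2 of CD3E. PECAM1 moved with the groups, with 1.00 to 1.52 CPM in the control samples, 3.61 to 4.01 under iohexol, 1.71 to 1.97 under cisplatin and at most 0.188 with vancomycin. Summed mesenchymal markers were 934 to 969 CPM in the control samples, 508 to 562 under iohexol, 535 to 555 under cisplatin and 1007 to 1138 under vancomycin. CDH2 fell with iohexol (log2 fold change -0.77 ± 0.09), cisplatin (-1.06 ± 0.06) and vancomycin (-0.95 ± 0.08), while DCN fell with iohexol (-0.96 ± 0.14) and cisplatin (-2.19 ± 0.17) and rose with vancomycin (1.27 ± 0.12). PDGFRB was up-regulated with cisplatin (1.15 ± 0.39) and vancomycin (1.12 ± 0.42). Its call with cisplatin was lost without control sample 2 (adjusted p = 0.0746) or cisplatin sample 1 (0.115), and that with vancomycin without control sample 2 (0.103), control sample 3 (0.0682) or vancomycin sample 3 (0.111), with DESeq2 (0.0568) and without a filter (0.0542). The part of these changes in the levels of the histone genes was not tested.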

How the data were processed

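The authors deposited whole-number counts of reads per gene, without normalization, for 12 samples of poly(A)-selected RNA. The submitters' processing notes name CASAVA 1.8, fastp, HISAT2 2.0.5, featureCounts 1.5.0-p3 and DESeq2 1.20.0, without their roles. The strand setting and the treatment of reads that match several genes are not given in the sources used here. Such reads matter for histone genes: 17 of the 71 share over 50% of their 31-base words with another gene, and 6 share all.

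From the counts, edgeR 4.0.16 was run with TMM factors and filterByExpr (minimum count 10, total 15), each drug with the control group separately, and drugs against each other in 1 fit of 12 samples. A gene was called at an adjusted p under 0.05 (Benjamini-Hochberg, over all genes tested). The SE is the log2 fold change divided by the square root of F. The study compared groups with limma. Replicate samples differed by more than sampling noise (chi-square per degree of freedom 2.28 to 15.5). The steps were tested on simulated data.

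Named genes were the 10 members with the highest mean CPM, those with the smallest p in each direction of each comparison, tested H1 genes, and, of each other list, those with the smallest p. Results of 2 listed genes are not reported here. The members and lists were chosen with earlier results of these data known. Alternatives were DESeq2 1.42.0, limma-voom, RLE factors, library size alone, other filters, a replicate block, other fits and leaving out each sample.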

Additional observations from a re-analysis of the deposited data

How the results depend on the processing

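Low counts limit these results, since 47 of the 71 genes were not testable in any comparison with the control group. Requiring at least 10 counts in every sample gave 6 up-regulated genes with iohexol and 10 with vancomycin, 3 higher with iohexol than cisplatin, 0 higher and 3 lower with iohexol than vancomycin, and 7 lower with cisplatin than vancomycin, because fewer genes were tested. Without a filter, 0 were higher and 11 lower with iohexol than vancomycin, and 2 were higher with cisplatin than vancomycin. With library size alone, 0 were down-regulated with cisplatin, 3 were higher with iohexol than vancomycin and 3 higher with cisplatin than vancomycin, and the mean summed CPM was 83.4 with cisplatin and 162 with vancomycin. Without the gene with the most counts the mean summed CPM was 31.5, 88.8, 53.9 and 117 in the control, iohexol, cisplatin and vancomycin groups. A log2 fold change over 1 in addition left 0 down-regulated with cisplatin and 0 lower with iohexol than cisplatin. DESeq2 gave 0 higher with iohexol than vancomycin, RLE factors 2 and a separate fit of 6 samples 3 higher with cisplatin than vancomycin, and 1 fit of all samples 1 down-regulated with iohexol. The cause was not tested.

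Leaving out 1 sample gave 9 to 13 up-regulated genes with iohexol, 7 to 10 up- and 0 to 1 down-regulated with cisplatin and 16 to 20 up-regulated with vancomycin. It gave 5 to 8 higher and 1 to 3 lower with iohexol than cisplatin, 0 to 2 higher and 6 to 9 lower with iohexol than vancomycin, and 1 to 2 higher and 13 to 16 lower with cisplatin than vancomycin. The call of HIST1H2AC with cisplatin was lost without cisplatin sample 1 or 2, at log2 fold changes of -0.54 and -0.47.

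Of 826 values of named genes under alternatives that kept all samples, 802 kept direction and side of the threshold. The 3 that changed sign were uncalled with all samples: SNORD17 with cisplatin (0.19 with library size alone and 0.0032 with at least 10 counts) and MKI67 with cisplatin (0.14 with library size alone, adjusted p = 0.0352). Of 636 values without 1 sample, 589 were kept and 10 changed sign, all of genes uncalled with all samples. Their ranges were -0.45 to 0.49 for IPO4, -0.14 to 0.20 for SNORA73B and -0.13 to 0.056 for SNORD17 with cisplatin, -0.66 to 0.11 for RN7SL2, -0.54 to 0.14 for SNORA73B and -0.13 to 0.29 for SNORD17 with iohexol, and -0.35 to 0.16 for ANPEP with vancomycin.

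The replicate numbers of the labels are shared by the groups. Deviations from the group means correlated at -0.021 on average over 18 same-numbered pairs and at 0.011 over the other pairs, 1 pair was over 0.1, and 2 samples correlated best with their own number, so the numbers do not pair the samples. With the replicate block, 10 genes were up-regulated with iohexol, 9 up- and 1 down-regulated with cisplatin and 18 up-regulated with vancomycin.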
